A study of Arabidopsis thaliana with 2 samples.

Results

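Xyloglucan endotransglucosylase/hydrolases (XTHs) are secreted enzymes that cut xyloglucan, the hemicellulose that coats cellulose in the primary wall of plants, and rejoin the cut end to another xyloglucan chain or, in some members, to water. They are known for roles in wall loosening, in wall strengthening and in the growth of leaves, roots and vessels. TCH4 (XTH22), the best known member in Arabidopsis, was found as a gene switched on by touch and is also induced by temperature shock and brassinosteroid. The family list held 33 genes, XTH1 to XTH33, taken by their locus identifiers, and 20 of them were among the 18345 genes listed for both libraries. The other 13 (XTH1, XTH2, XTH3, XTH10, XTH11, XTH12, XTH13, XTH14, XTH20, XTH21, XTH25, XTH26 and XTH29) had no row there and were not analysed here.

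RNA sequencing was done on leaves of 2-week-old Arabidopsis thaliana plants kept at 4 °C for 24 h in long days. The npr1-1 group was a mutant with an amino acid change in NPR1, the co-activator needed for responses to salicylic acid, and the Col-0 group was the wild-type accession. Both groups had the same cold treatment at 40 µmol photons per square metre per second, after growth at 90. Each group was 1 library, so no difference had a replicate check, no p-value was computed, and each interval covers counting error only. No plants kept warm were analysed here, and the values say nothing about the response to cold itself.

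Recovered reads came to 50976521 in npr1-1 and 50864103 in Col-0. NPR1 itself (AT1G64280) had 18.7 CPM in npr1-1 and 22.0 CPM in Col-0 (CPM, reads of a gene per 1000000 reads of the listed genes), a level that does not check a point mutation. The labelled tissue fitted its markers: 5 leaf mesophyll genes summed to 36231 CPM in npr1-1 and 32710 CPM in Col-0. Log2 differences (npr1-1 minus Col-0, defined with the results) were 0.40 for RCA, which activates Rubisco, and 0.03 for RBCS1A, a Rubisco subunit gene. RBCS1A was the highest of the 5 by the mean of both libraries. The antenna genes LHCB1.1 and LHCB2.1, which have near copies, had 0.22 and 0.12. CA1, the remaining marker of the 5, went the other way, at -0.12. Of 5 root markers 2 were listed, and they summed to 51.1 CPM in npr1-1 and 49.7 CPM in Col-0, nearly all from PYK10. The shoot meristem gene STM had 2.69 CPM in npr1-1 and 2.54 CPM in Col-0, and the 7 flower and seed markers had no row. In whole leaves fewer cells of a type and less RNA per cell cannot be told apart.

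The family is commonly divided by sequence into Group I, Group II, Group IIIA and Group IIIB and the stretch that carries the active site is shown for members of each, so that the genes described by group can be told apart by their sequence. It centres on the catalytic motif of 6 residues that is shared by this enzyme family, whose codons are in capitals, with 1 codon before and 6 after, read 5′ to 3′ on the coding strand of the RefSeq assembly TAIR10.1.
XTH9 (Group I): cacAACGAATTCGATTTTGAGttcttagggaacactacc
XTH6 (Group I): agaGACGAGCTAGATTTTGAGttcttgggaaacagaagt
XTH16 (Group II): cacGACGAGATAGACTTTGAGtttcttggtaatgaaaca
XTH19 (Group II): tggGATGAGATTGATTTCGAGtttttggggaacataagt
XTH22 (Group II): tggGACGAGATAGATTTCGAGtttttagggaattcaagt
XTH28 (Group IIIB): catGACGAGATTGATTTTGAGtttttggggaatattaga
XTH31 (Group IIIA): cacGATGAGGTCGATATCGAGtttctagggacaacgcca
XTH32 (Group IIIA): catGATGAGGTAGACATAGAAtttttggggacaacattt

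These stretches lie on chr4:1416535-1416573 (plus strand, XTH9), chr5:26299613-26299651 (plus, XTH6), chr3:8550595-8550633 (plus, XTH16), chr4:14829552-14829590 (minus, XTH19), chr5:23307830-23307868 (minus, XTH22), chr1:5067922-5067960 (minus, XTH28), chr3:16447873-16447911 (minus, XTH31) and chr2:15474064-15474102 (minus, XTH32). Of the 20 listed members 13 encoded the canonical motif exactly, 3 (XTH6, XTH7 and XTH33) with 1 residue changed, and 4 (XTH9, XTH30, XTH31 and XTH32) with 2 residues changed. A motif for N-glycosylation, Asn followed by any residue but Pro and then Ser or Thr, stood within 9 residues behind it in 14 members. These 14 were all the listed members of Groups I and II, and none of the 6 listed members of Group III had it there. The encoded proteins had 269 to 343 residues. XTH31 and XTH32 were each other's closest listed relatives at 66.6% identity, whereas pairs of a Group III with a Group I or II protein had 31.7 to 47.1% identity. XTH17, XTH18 and XTH19 were the most alike, with XTH18 at 93.3% identity to XTH17 and 91.3% to XTH19.

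Levels within the family spanned a wide range. A minimum of 5 CPM in at least one library was set, and the 13 members past it had that level in both, so none passed through 1 library alone. These were XTH4, XTH6, XTH7, XTH8 and XTH9 of Group I, XTH16, XTH19, XTH22 and XTH24 of Group II, XTH31 and XTH32 of Group IIIA, and XTH27 and XTH28 of Group IIIB. The other 7, XTH5, XTH15, XTH17, XTH18, XTH23, XTH30 and XTH33, were under 5 CPM in both libraries. Together the 20 members had 531 CPM in npr1-1 and 468 CPM in Col-0, a ratio of 1.13 (95% counting interval, 1.12 to 1.15). Without XTH31 the ratio was 1.08, from 1.06 to 1.1.

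**Figure D1:**
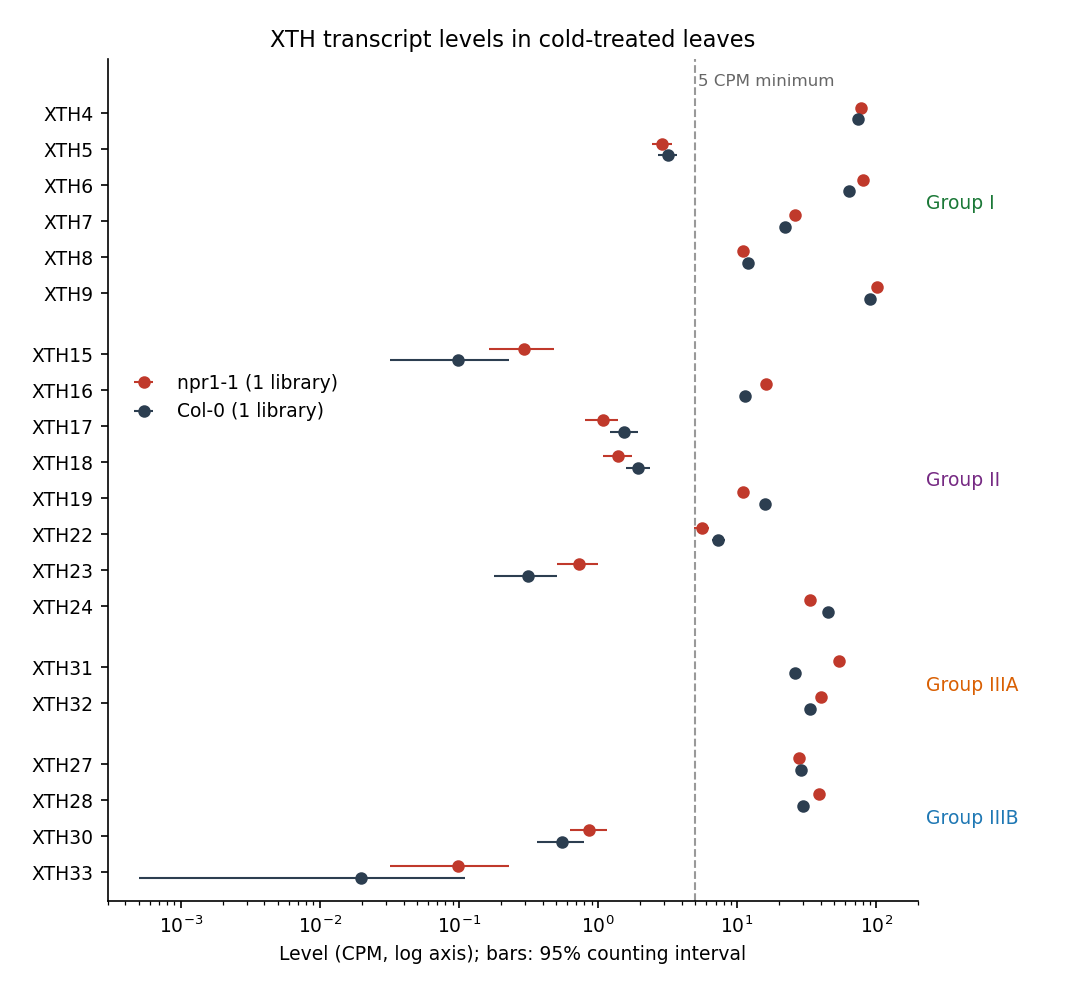
Level of each listed XTH gene in CPM (log axis) in the npr1-1 library (red, upper point of each row) and the Col-0 library (dark, lower point), by group, with 95% counting intervals as bars. XTH9 was the highest member in both libraries and XTH33 the lowest, and XTH31 stood at 54.2 CPM in npr1-1 and 26.3 CPM in Col-0.

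To compare genes, each level was divided by the length of the deposited model, 1048 to 1392 bases among the members. On this scale XTH9, a gene known for its expression in the shoot apex, was first in both libraries, at 95 CPM per kb in npr1-1 and 83.8 CPM per kb in Col-0. Only 6.87% of listed genes in npr1-1 and 7.84% in Col-0 were as high or higher. In npr1-1 XTH6, XTH4, XTH31, XTH32 and XTH28 followed, at 71.9, 63.6, 42.5, 34.1 and 28.9 CPM per kb. In Col-0 XTH4, XTH6, XTH24, XTH32 and XTH28 followed, at 61.2, 57.6, 37.1, 28.4 and 22.2 CPM per kb. The counting intervals of XTH4 and XTH6 overlapped in Col-0, and those of XTH28 and XTH24 overlapped in npr1-1, so the order within these pairs is not set by the counts. XTH31 took place 4 in npr1-1 and place 8 in Col-0, the largest change of place in the family, and in Col-0 its interval overlapped those of its neighbours XTH27 and XTH7. Of the 20 members 10 held the same place in both libraries. XTH9, XTH6 and XTH4 together made up 48.8% of the family's reads in npr1-1 and likewise 48.8% in Col-0.

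Setting npr1-1 against Col-0 addresses which XTH transcripts differ in cold leaves when NPR1 is mutated. XTH31 stood out among the members, with about double the level in npr1-1, while XTH16, XTH28, XTH6, XTH32, XTH7 and XTH9 were higher in npr1-1 by smaller amounts. The Group II genes XTH19, XTH24 and XTH22 were lower in npr1-1. Differences are given as log2(CPM + 1), npr1-1 minus Col-0, and 2-fold is a difference of 1 on that scale. Among the 13 members with at least 5 CPM, 1 was at least 2-fold higher in npr1-1 and 0 were at least 2-fold lower, against 0.200% of the 13976 genes past the same minimum at least 2-fold higher and 0.529% at least 2-fold lower. At 1.5-fold the members' counts were again 1 higher and 0 lower, against 0.909% higher and 2.06% lower of those genes. In either direction 0.730% of all genes were at least 2-fold and 2.97% at least 1.5-fold apart. The members' median log2 difference was 0.18, and that of all 13976 genes was -0.05. With a minimum of 1 CPM, which lets 16 members in, the members' median was 0.01. The difference was above 0 for 8 of the 13 members (61.5%) and for 41.0% of all genes. Long transcripts tended to lower values in npr1-1. After a correction for transcript length the difference was above 0 for 9 of the 13 members, XTH27 having turned to just above 0 (0.00 at 2 decimals). It was then above 0 for 6983 of all 13976 genes. This count, also given below, is fixed by the correction, which subtracts the median of all genes of like length.

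The counting interval of the npr1-1 to Col-0 ratio lay above 1 for 7 of the 13 members (53.8%) and below 1 for 3 of them (23.1%). Over all genes past the minimum it lay above 1 for 23.5% and below 1 for 36.8%, and left out 1 for 60.2%. At this depth counting error is small, so an interval apart from 1 is common and says nothing about the spread between plants, which was not measured.

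**Figure D2:**
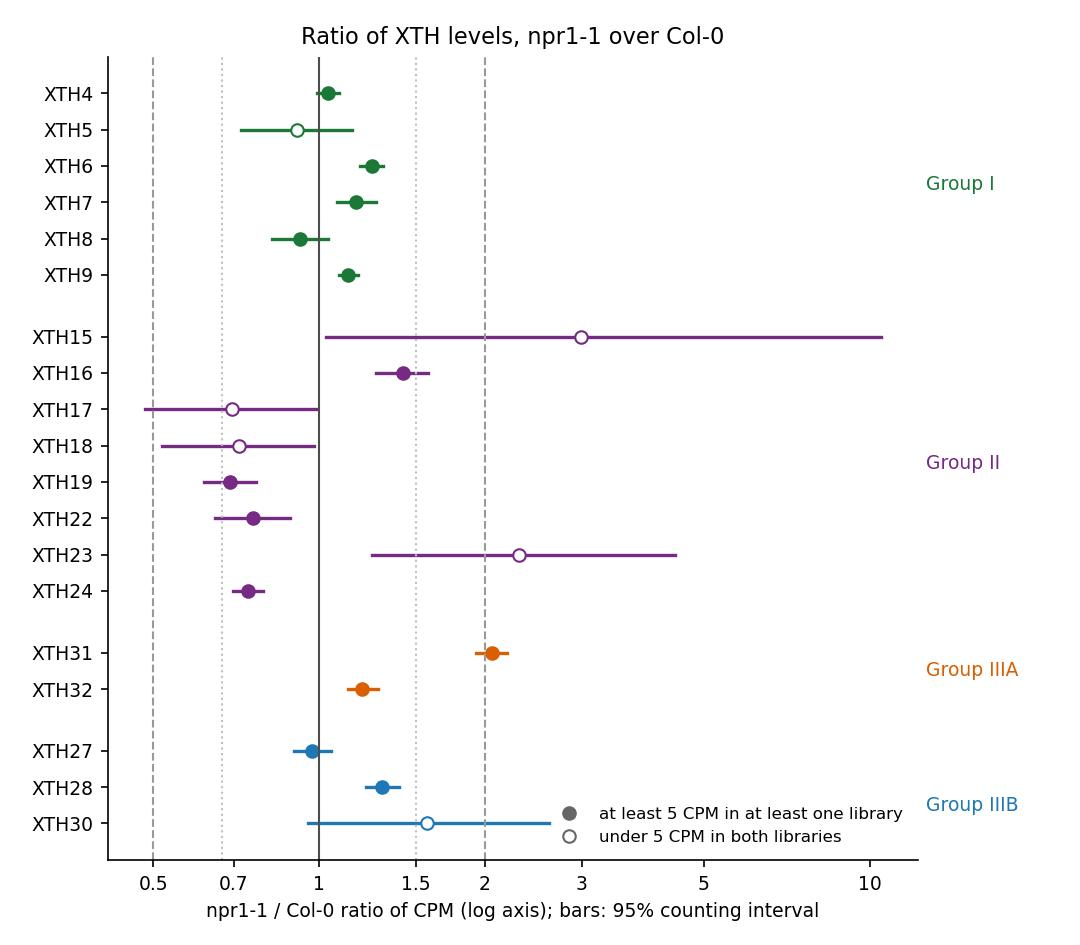
Ratio of CPM in npr1-1 over Col-0 (log axis) for 19 listed XTH genes, by group, with 95% counting intervals as bars, lines at 2-fold (dashed) and 1.5-fold (dotted), and open points for genes under 5 CPM in both libraries. XTH33, with 5 reads in npr1-1 and 1 read in Col-0, is not drawn, and XTH31 at 2.06 was the only filled point beyond the 1.5-fold lines.

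Group IIIA enzymes are known mainly for cutting xyloglucan, and both members were higher in npr1-1. XTH31 (AT3G44990, chromosome 3, 16446975 to 16448764, minus strand, 4 exons in the reference), whose loss is known to make Arabidopsis roots more tolerant of aluminium, had 54.2 CPM in npr1-1 and 26.3 CPM in Col-0, from 2761 reads in npr1-1 and 1336 reads in Col-0. The ratio was 2.06 (1.93 to 2.20), and the log2 difference was 1.02. Of the 13976 genes 27, XTH31 included, had a difference as high or higher. The 2-fold call was narrow, since with a pseudocount of 5 CPM the difference was 0.92. XTH32, its relative, had 40.1 CPM in npr1-1 and 33.4 CPM in Col-0, a ratio of 1.20 (1.13 to 1.28). XTH31 alone made up 10.2% of the family's reads in npr1-1 and 5.61% in Col-0, and the pair made up 17.7% of the family's reads in npr1-1 and 12.7% in Col-0.

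Of the Group IIIB genes, XTH28 was higher in npr1-1 and the interval of XTH27 included 1. XTH28, known to be needed for growth of stamen filaments, had 39.0 CPM in npr1-1 and 29.9 CPM in Col-0, a ratio of 1.30 (1.22 to 1.40). XTH27, a gene of developing vessels in leaf veins and 78.6% identical to XTH28 in protein, had 28.0 CPM in npr1-1 and 28.8 CPM in Col-0. Its interval, from 0.902 to 1.05, included 1, and its log2 difference of -0.04 became 0.00 under both other scalings tried. XTH30, whose mutants are known for altered salt tolerance, had 44 reads in npr1-1 and 28 reads in Col-0, and its interval from 0.955 to 2.62 included 1. XTH33, known as a member anchored in the plasma membrane, had 5 reads in npr1-1 and 1 read in Col-0, a ratio of 4.99 (0.558 to 236).

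Group I held the most abundant members, and their differences were small. XTH9, which together with XTH4 is known to act in secondary growth of the stem, had 102 CPM in npr1-1 and 89.9 CPM in Col-0, a ratio of 1.13 (1.09 to 1.18). XTH6 had 80.2 CPM in npr1-1 and 64.2 CPM in Col-0, a ratio of 1.25 (1.19 to 1.31), the largest in this group. XTH7 had 26.2 CPM in npr1-1 and 22.3 CPM in Col-0, a ratio of 1.17. XTH4 had 77.3 CPM in npr1-1 and 74.3 CPM in Col-0, XTH8 had 11.0 CPM in npr1-1 and 11.9 CPM in Col-0, and the intervals of both included 1. XTH5 was under the minimum with 147 reads in npr1-1 and 161 reads in Col-0, and its interval from 0.723 to 1.15 included 1 as well. The group's median log2 difference, over 5 members, was 0.18.

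Group II was the one group whose members past the minimum had a negative median log2 difference, -0.38 over 4 genes, and its members went both ways. Its 8 listed genes summed to 69.6 CPM in npr1-1 and 83.5 CPM in Col-0, a ratio of 0.834 (0.798 to 0.872). The other 3 groups each summed to more in npr1-1, with ratios of 1.13 for Group I, 1.58 for Group IIIA and 1.15 for Group IIIB. Differences between groups of genes were not tested, since each condition was 1 library.

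XTH24, XTH18 and XTH19 are neighbours on the minus strand of chromosome 4, with 5215 bases between the models of XTH24 and XTH18 and 1664 bases between those of XTH18 and XTH19. All 3 had lower levels in npr1-1, as did 59.0% of all genes past the minimum. XTH24 (AT4G30270), first cloned as the meristem gene MERI5B, had 33.3 CPM in npr1-1 and 44.8 CPM in Col-0, a ratio of 0.744 (0.698 to 0.792). XTH19 (AT4G30290, 14828712 to 14830016), a root-expressed member whose mutants are known to tolerate freezing less after cold acclimation, had 11.0 CPM in npr1-1 and 16.0 CPM in Col-0. Its ratio of 0.691, from 0.619 to 0.770, and its log2 difference of -0.50 were the lowest among the 13 members. XTH18, a gene of root growth, was under the minimum, with 71 reads in npr1-1 and 99 reads in Col-0, a ratio of 0.716 (0.520 to 0.980). Summed, the 3 neighbours had 45.8 CPM in npr1-1 and 62.7 CPM in Col-0, a ratio of 0.730.

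XTH17, needed like XTH15 for petiole growth in shade, is on chromosome 1, but its transcript was 90.8% identical to that of XTH18 over its whole length, and how their reads were divided is uncertain. XTH17 had 55 reads in npr1-1 and 79 reads in Col-0. Counted as one, XTH17 and XTH18 had 126 reads in npr1-1 and 178 reads in Col-0, a ratio of 0.706 (0.558 to 0.892), which does not depend on that split. No other pair of member transcripts reached 90% identity over 50% of the length.

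TCH4 (XTH22, AT5G57560, chromosome 5, 23307130 to 23308282, minus strand) had 5.57 CPM in npr1-1 and 7.35 CPM in Col-0, from 284 reads in npr1-1 and 374 reads in Col-0. The ratio was 0.758 (0.647 to 0.886), and the log2 difference was -0.35. Its closest relative, XTH23 (XTR6), at 82.0% identity in protein, was on the other side of 1. XTH23 was under the minimum, with 37 reads in npr1-1 and 16 reads in Col-0, a ratio of 2.31 (1.25 to 4.44). The other touch genes, which code for calmodulin or calmodulin-like proteins, were lower in npr1-1, as were 59.0% of all genes past the minimum. TCH3 had 8.22 CPM in npr1-1 and 19.9 CPM in Col-0, and TCH2 had 21.1 CPM in npr1-1 and 30.4 CPM in Col-0. CAM2 (TCH1) had 49.3 CPM in npr1-1 and 64.7 CPM in Col-0. CAM2 overlaps a gene on the opposite strand and resembles AT3G56800 at 90.7% identity, so its reads are uncertain.

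XTH16 and XTH15 form a further pair of close relatives, at 85.8% identity in protein. XTH16 (AT3G23730) had 16.2 CPM in npr1-1 and 11.4 CPM in Col-0, a ratio of 1.42 (1.27 to 1.58) and a log2 difference of 0.47. It was the only Group II gene past the minimum with a higher level in npr1-1, and 1.83% of all genes past it had a difference as high or higher. XTH15 had 15 reads in npr1-1 and 5 reads in Col-0, a ratio of 2.99 (1.03 to 10.5), and an exon of AT4G14120 on the opposite strand overlaps it in the reference. Strand use in the counting is not given in the sources used here.

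**Figure D3:**
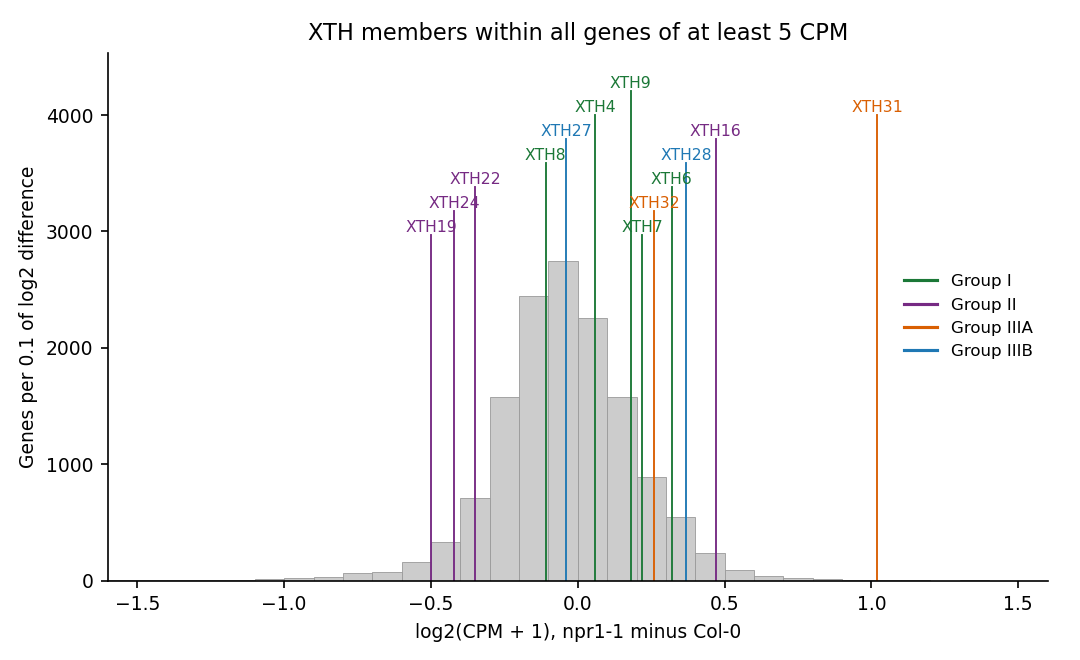
Numbers of genes by log2(CPM + 1) difference, npr1-1 minus Col-0 (grey bars, genes past the minimum of 5 CPM), with the 13 XTH members past that minimum as lines coloured by group. Genes farther out than the axis are not drawn, and XTH31 at 1.02 lay apart from the other members, which ran from -0.50 to 0.47.

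Genes that act with XTHs on xyloglucan were looked at as lists. The 14 genes of xyloglucan synthesis, which make the glucan backbone and add its side chains, had 11 members past the minimum, 0 of them 1.5-fold apart. All 11 had negative log2 differences, as did 59.0% of all genes, with a median of -0.18. After the length correction 9 of the 11 were negative, beside 6983 of all 13976 genes, CSLC8 was at 0.05 and XXT1 at 0.01, and the median was -0.13. MUR3, a galactosyltransferase gene, had 35.0 CPM in npr1-1 and 45.5 CPM in Col-0, and XLT2, another galactosyltransferase gene, had 40.8 CPM in npr1-1 and 53.0 CPM in Col-0. AXY4, a gene of xyloglucan acetylation, had 10.6 CPM in npr1-1 and 13.6 CPM in Col-0. XXT2, a xylosyltransferase gene and the highest of the list, had 55.7 CPM in npr1-1 and 63.4 CPM in Col-0.

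The 3 genes of xyloglucan breakdown had differences of -0.30 for BGAL10, a beta-galactosidase, -0.07 for XYL1, an alpha-xylosidase, and -0.02 for AXY8, a fucosidase. After the length correction only BGAL10 of these 3 was negative, at -0.21. Expansins, which loosen walls without cutting them, had 14 members past the minimum. Of these, 8 had positive and 6 negative differences, beside 41.0% and 59.0% of all genes, and the list's median was 0.08. The sign of that median was not stable, since it was -0.05 without a minimum and -0.02 with a minimum of 20 CPM. At 1.5-fold 1 was higher and 1 lower in npr1-1. EXLB1 had 7.57 CPM in npr1-1 and 4.64 CPM in Col-0, while EXLA1 had 3.57 CPM in npr1-1 and 6.17 CPM in Col-0. EXLA1 overlaps a gene on the opposite strand. EXLA2 had 20.9 CPM in npr1-1 and 15.9 CPM in Col-0, and EXPA10, the highest expansin, had 81.1 CPM in npr1-1 and 95.2 CPM in Col-0.

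Cellulose synthesis genes had 11 members past the minimum, with a median of -0.09. Of the 11, 3 had positive and 8 negative differences, beside 59.0% of all genes with negative ones. After the length correction 5 were positive and 6 negative, beside 6983 of all 13976 genes negative. CESA1 was then at 0.03 and KOR1 at 0.01, and the list's median was -0.01. The brassinosteroid list, which covers its synthesis and signalling, had 8 members past the minimum, 0 of them 1.5-fold apart, and a median of -0.03 that became 0.07 after the length correction. BR6OX2 and CPD, 2 genes of brassinosteroid synthesis, had 0.26 and 0.23, and BES1, a transcription factor gene, had -0.16. The lists share both libraries with the XTH members and are set side by side as descriptions.

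**Figure D4:**
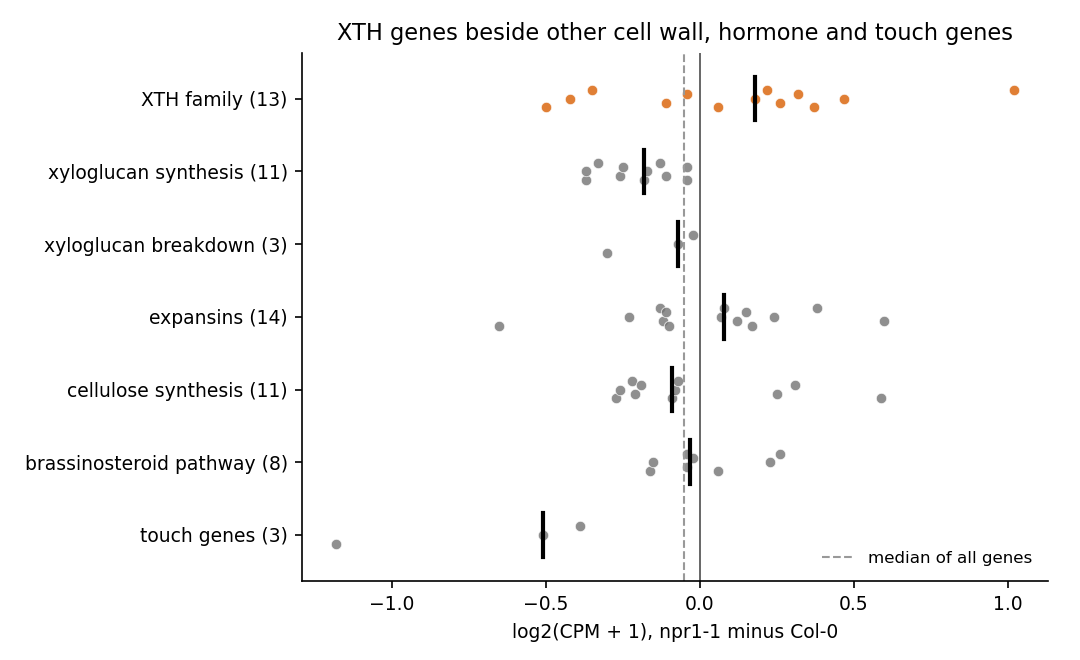
log2(CPM + 1) differences, npr1-1 minus Col-0, of genes past the minimum of 5 CPM, by list (numbers of genes in brackets), with the median of each list as a black bar and that of all genes as a dashed line. The XTH members (orange) spread from -0.50 to 1.02, and the 11 xyloglucan synthesis genes plotted lay below 0, as 9 of them did after the correction for transcript length.

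Because NPR1 acts with TGA factors and the series names HSFA1 heat shock factors, the 250 bases before the start of each deposited model were searched on both strands for 10 motifs of stress, cold and hormone factors. The heat shock element was searched as GAANNTTC, and it stood before 6 of the 20 members, against 9.80% of 18238 such windows. The 30 bases around each match are given for the 5 Group II genes that held it, with the matched letters in capitals.
XTH17: atcaaacctatGAAACTTCcttctctcttt
XTH18: atcaaacccatGAAACTTCcttctctcttt
XTH19: atcaaacccatGAAACTTCcatctctcttt
XTH22: tttcgccatacGAACCTTCctctatacgaa
XTH23: cggccgataacGAACCTTCctctctgactg

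These sites lie on chr1:24257135-24257164 (plus strand, XTH17), chr4:14827101-14827130 (minus, XTH18), chr4:14830056-14830085 (minus, XTH19), chr5:23308348-23308377 (minus, XTH22) and chr4:13128568-13128597 (plus, XTH23) of TAIR10.1. They begin 70, 72, 58, 84 and 64 bases before the start of the model in that order, and XTH33 had a match 197 bases before. Of these 5 genes XTH17, XTH18, XTH19 and XTH22 had lower levels in npr1-1 and XTH23 a higher one, and XTH17, XTH18 and XTH23 were under the minimum. Of all genes past the minimum 59.0% were lower in npr1-1, and a link between the motif and the levels was not tested. XTH24, also lower, and XTH16, higher, had no match. The 5 genes are close relatives, so their sites are not separate cases. RefSeq starts these genes farther upstream, so the 5 sites lie inside the RefSeq genes. Before the RefSeq starts the motif stood in 1 of the 20 members and in 9.55% of 27443 windows. A match is a run of letters and shows no binding.

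The core of TGA factor sites, TGACG, stood before 3 members (XTH6, XTH23 and XTH31) of the 20, against 22.0% of all windows. The CRT/DRE core CCGAC, bound by CBF cold factors, stood before XTH31 alone, against 15.2% of windows. Before the RefSeq starts TGACG stood in 3 of 20 members (18.6% of windows) and CCGAC in 0 of 20 (12% of windows). The TGACG matches named for XTH6 and XTH23 lie inside the RefSeq genes, so the counts of 3 do not rest on the same sites. That of XTH31 lies before the RefSeq start, and the CCGAC letters before the deposited XTH31 model lie inside the RefSeq gene. Both sites of XTH31, the member with the largest difference, are shown in 30 bases, with the matched letters of either strand in capitals.
XTH31, TGACG: ggcccatccaatTGACGgataacagtcact
XTH31, CCGAC on the other strand: actcctataactGTCGGacccgcatcactc

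They lie on chr3:16448833-16448862 and chr3:16448802-16448831 (minus strand, TAIR10.1), and the matches begin 86 and 55 bases before the model. The CAMTA core CGCGT stood before XTH18, XTH22 and XTH23 (3 of 20, against 9.70% of windows), with 1 of its matches in XTH23 beginning within 2 bases of the TGACG match there and sharing letters with it. The brassinosteroid element CGTGTG stood before XTH9 only (1 of 20, against 6.37%), and the W-box TTGACC before XTH8 and XTH23 (2 of 20, against 12.5%). The other 4 (the W-box form TTGACT, the G-box CACGTG, the brassinosteroid form CGTGCG and the evening element AAAATATCT) had no match before any member, against 18.6%, 9.24%, 1.88% and 2.47% of windows. These counts hold for the deposited starts. The CGCGT matches of XTH22 and XTH23, the CGTGTG match of XTH9 and the TTGACC match of XTH23 lie inside the RefSeq genes. The CGCGT match of XTH18 and the TTGACC match of XTH8 lie before the RefSeq starts, so the counts from the 2 kinds of start do not rest on the same sites. Before the RefSeq starts CGCGT stood in 1 of 20 members (6.87% of windows), CGTGTG in 2 (5.37%), TTGACC in 2 (12.2%) and TTGACT in 2 (19.1%), and the other 3 again in 0.

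**Figure D5:**
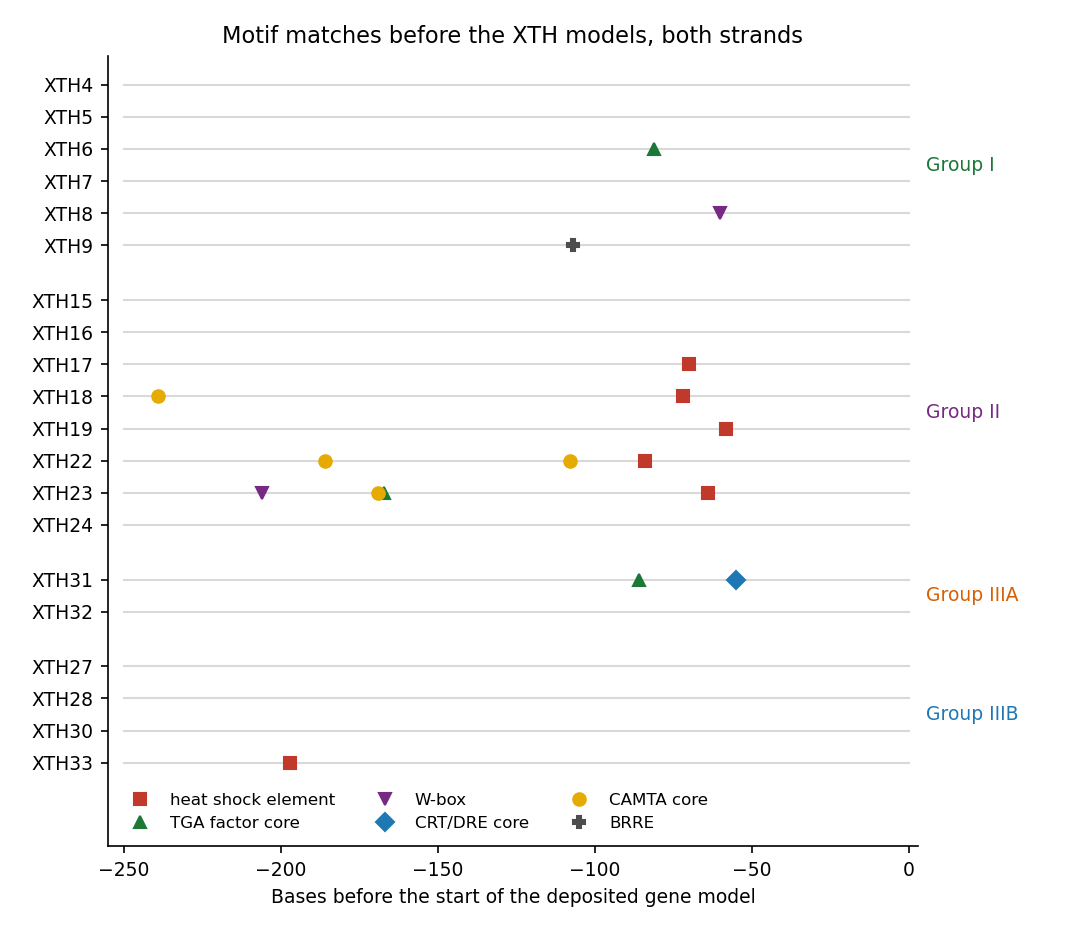
Matches of the motifs before the start of each deposited XTH model, in bases before the start, by group. The heat shock element (red squares) stood 58 to 84 bases before the deposited models of XTH17, XTH18, XTH19, XTH22 and XTH23 (Group II). Those 5 sites lie inside the RefSeq genes, which start farther upstream. XTH31 had 1 TGA factor core and 1 CRT/DRE core, the latter also inside the RefSeq gene.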

How the data were processed

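Per the file headers, the authors deposited CPM per gene, scaled to 1000000 over 18345 mRNA genes in each library. The submitters' processing notes name TopHat2, DESeq2 and TAIR10 without version or role. Not given in the sources used here are the read counter, strand use, gene filter and pooling of plants. CPM were used as deposited, and whole reads were recovered by dividing by the value of 1 read (within 0.01 for 100% of values), for counting intervals (exact, 95%) that cover counting error only.

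The measure was the difference of log2(CPM + 1), npr1-1 minus Col-0. Genes entered with 5 CPM or more (255 reads) in either library. Members and lists were chosen with earlier results of these data known. Every listed member is named, and from each other list the 3 largest differences and the highest gene. The plan foresaw protein and promoter tables; sequences were instead read from RefSeq's TAIR10.1 genome, in whose genes all 20 deposited models lie. Tools were Python 3.11.15, numpy 2.4.6, pandas 2.3.3, scipy 1.17.1, Biopython 1.88, matplotlib 3.10.9 and BLAST+ 2.17.0. The procedure was tested on simulated libraries that held counting error alone, with changes set only in genes with many reads. That test says nothing about the spread between plants. Alternatives were pseudocounts, minimums, scalings and a correction for transcript length.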

Additional observations from a re-analysis of the deposited data

How the results depend on the processing

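Scaling by median ratios or trimmed means raised the npr1-1 to Col-0 ratios by 0.04 on the log2 scale. The log2(CPM + 1) differences of low genes moved by less, and those of XTH15 and XTH33 did not move at 2 decimals. With a pseudocount of 5 CPM 0 members were 2-fold apart, because the difference of XTH31 became 0.92. The family median of 0.18 became 0.01 with a minimum of 1 CPM and 0.11 as a mean over members. The Group I median became 0.12 with a minimum of 1 CPM and likewise without a minimum. The expansin median became -0.05 without a minimum and -0.02 with a minimum of 20 CPM, and the cellulose synthesis median -0.20 with that minimum. These minimums differ by construction in which genes enter. After the correction for transcript length the medians of xyloglucan breakdown, cellulose synthesis and brassinosteroid genes became 0.00, -0.01 and 0.07; over 20 length bins the median of all genes ran from 0.11 (shortest) to -0.11 (longest). The family sum ratio of 1.13 became 1.08 without XTH31 and 1.17 under both other scalings. Of 65 values under other settings for members past the minimum, 1 fell outside the member's counting interval, that of XTH31 above. XTH23, under the minimum, went from 0.39 to 0.11 with a pseudocount of 5 CPM, also outside its interval. Among all 100 values of single members 0 called values changed sign. The settings for subgroups, for counting intervals and, for the sum, all but leaving out XTH9 were added after the data were seen. With 1 library per genotype no replicate could be left out, and the spread between plants was not measured.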

Other observations

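The cellulose synthase genes divided by the wall they are known to build, a division looked at after the values were seen. The 3 genes of secondary walls were higher in npr1-1, as were 41.0% of all genes past the minimum. CESA7 had 511 reads in npr1-1 and 322 reads in Col-0, a ratio of 1.58. CESA8 had 9.59 CPM in npr1-1 and 7.57 CPM in Col-0, and CESA4 had 13.6 CPM in npr1-1 and 11.2 CPM in Col-0. CESA4 and CESA7 each overlap a gene on the opposite strand, so part of their reads cannot be placed. The 5 genes of primary walls, CESA1, CESA2, CESA3, CESA5 and CESA6, had negative log2 differences, as did 59.0% of all genes past the minimum. The 5 values ran from -0.27 for CESA6 to -0.07 for CESA1. After the correction for transcript length 4 of the 5 were negative, beside 6983 of all 13976 genes, and CESA1 was at 0.03. The median of the 5 was then -0.12, and that of the 3 secondary wall genes was 0.38.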
